A study of Mus musculus with 28 samples.

Results

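The genes described here are the 8 that make selenocysteine and insert it into proteins, found by symbol among the 55416 gene identifiers of each of 28 mouse count files: Sepsecs, Pstk, Sephs1, Sephs2, Secisbp2, Secisbp2l, Eefsec and Trnau1ap. All 8 had an identifier in every file and passed the filter on low counts in every comparison. RNA of cortex and heart from C57BL/6J mice was sequenced from the 3′ ends of polyadenylated transcripts (QuantSeq, forward kit). At postnatal day 1 (P1), each tissue had 3 control libraries, labelled Y334C WT, and 3 mutant libraries, labelled Y334C MT, which carried the human missense allele Y334C of Sepsecs. At postnatal day 75 (P75), each tissue had 3 control libraries, labelled Gpx4 WT (spelled Gxp4 in most labels), and 5 mutant libraries, labelled Gpx4 MT, which the series' design text gives as Sepsecs Y334C with Gpx4 U/C. U and C are the letters for selenocysteine and cysteine, and the cysteine form of the lipid peroxidase Gpx4 needs no selenium. The labels give neither the Sepsecs genotype of the P75 controls nor the number of mutated Sepsecs copies, and age and the Gpx4 allele change together between the mutant groups. Replicates were mice per the design text, and the labels do not tie a cortex library to a heart library.

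Selenocysteine has no codon of its own. It is built on its tRNA, which is first charged with serine; Pstk, a kinase, phosphorylates that serine, and Sepsecs exchanges the phosphate for selenium. The selenium comes from selenophosphate, the product of Sephs2, which is itself a selenoprotein, while its relative Sephs1 lacks selenocysteine and does not make selenophosphate. At the ribosome, Secisbp2 binds the SECIS element, an RNA fold that marks selenoprotein mRNAs, and Eefsec is the elongation factor that brings the loaded tRNA to a UGA codon. Secisbp2l is a relative of Secisbp2, and Trnau1ap is a protein associated with the selenocysteine tRNA. Neurons and heart muscle both depend on selenoproteins that limit lipid peroxidation.

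The codon of the allele and the selenocysteine codon of Sephs2 are given with their surroundings, since the results turn on Sepsecs and Sephs2, and the matching stretch of Sephs1 is set beside that of Sephs2. The sequences are coding strand, 5′ to 3′, from the GENCODE M21 transcripts of build GRCm38, and the capitals mark the codon. Sepsecs (ENSMUSG00000029173, chr5:52640087-52669708, minus strand) has TAC, tyrosine, as the codon that the allele name Y334C points to, at chr5:52656038-52656040 in exon 8 of 11. Sephs2 (ENSMUSG00000049091, chr7:127271879-127274055, minus strand) has TGA as codon 63, at chr7:127273731-127273733 in its single exon, and the annotation reads through it; the gene model Gm44729 overlaps it on the opposite strand. Sephs1 (ENSMUSG00000026662, chr2:4881564-4910557, plus strand) has ACA, codon 29, at the aligned place, at chr2:4884497-4884499 in exon 2 of 9.
Sepsecs Y334C codon: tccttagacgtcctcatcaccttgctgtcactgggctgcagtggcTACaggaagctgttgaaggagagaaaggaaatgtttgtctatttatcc
Sephs2 codon 63: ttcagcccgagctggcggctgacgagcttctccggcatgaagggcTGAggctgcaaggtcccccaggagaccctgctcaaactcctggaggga
Sephs1 codon 29: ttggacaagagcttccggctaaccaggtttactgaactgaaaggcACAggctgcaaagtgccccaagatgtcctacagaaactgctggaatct
Over the aligned coding sequence, 803 of 1173 bases of Sephs1 and Sephs2 were identical (68.46%). A 3′ tag count does not read the Y334C codon, so the values below check the amount of Sepsecs mRNA and not the allele.

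The libraries held 2997738 to 8779631 counts. Levels are CPM, counts relative to the library's total, scaled by trimmed mean of M values (TMM) over the 28 libraries, and they are compared within a gene, since levels of different genes were not put on a scale per length. Before scaling, 1 count equalled 0.114 to 0.334 CPM of the library total. The summed level of 10 cardiomyocyte markers was 36765 to 55361 CPM of the library total in heart and 38.7 to 571 in cortex, and that of 10 neuron markers was 7828 to 16544 in cortex and 42.5 to 113 in heart. The 6 airway and lung markers summed to 3144 CPM in P1 heart control 1, 879 in P1 heart control 2, 428 in P1 heart mutant 2 and 735 in P75 heart mutant 2, and all 6 were at 0 in P1 heart control 3. The 7 erythroid markers summed to 18544 to 69559 CPM in P1 heart controls and 49512 to 59036 in P1 heart mutants. In P75 hearts they summed to 3766 to 24315 CPM in controls and 3296 to 16598.5 in mutants. Control 2 and mutant 2 were the highest. Every P1 mutant library had Xist, the RNA of the inactive X chromosome of females, at 114 CPM or more, while among the P1 controls cortex control 1 and heart control 2 did. Per the first protocol passage of the labels, RNA of P1 heart control 3 and of the 3 P1 heart mutants was extracted with RNeasy Plus Micro and that of the others with TRIzol. Sex, read from Xist, thus went largely with genotype at P1 in both tissues, and their parts cannot be told apart there. The part of these differences in the results was not tested. Values without such libraries or with Xist as a covariate are given in places.

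Mutant and control libraries were compared within each age and tissue to see whether Sepsecs or any other step of the pathway was expressed differently beside the allele. None of the 8 mRNAs passed the threshold of an adjusted p of 0.05 in any of the 4 comparisons by the edgeR quasi-likelihood test. Across all genes tested, 0% of 13694 passed in P1 cortex, 0% of 12876 in P1 heart, 0% of 13291 in P75 cortex and 0.0163% of 12264 in P75 heart, so calls were rare for every gene. At an unadjusted p under 0.05, 1 member stood in P1 cortex, 1 in P1 heart, 1 in P75 cortex and 0 in P75 heart, against 2.1%, 2.53%, 5.46% and 7.83% of all genes. In each of the first 3 comparisons the member was Sephs2. DESeq2 and limma-voom called 0 members in each comparison as well. In bulk tissue, fewer cells of a type and less RNA per cell cannot be told apart.

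Sephs2, the selenophosphate synthetase, had higher estimates in mutants in all 4 comparisons, in 3 of them with an unadjusted p under 0.05, and passed the adjustment in 0. In P1 cortex the controls had 24.2, 21.0 and 21.1 CPM and the mutants 41.5, 28.8 and 29.6, so that each mutant lay above each control. The log2 fold change was 0.59 ± 0.18 (SE; 95% interval 0.18 to 1.01), or 1.51-fold, with an unadjusted p of 0.00949, the 30th smallest of all genes, and an adjusted p of 1 (edgeR). The control with high Xist was the one at 24.2 CPM. All 3 mutants had high Xist, and 1 such control cannot tell sex from genotype. In P1 heart the controls had 22.3, 17.6 and 21.4 CPM and the mutants 36.3, 30.2 and 25.9, again with no overlap. There the log2 fold change was 0.57 ± 0.25 (SE; interval 0.01 to 1.14), or 1.49-fold, with an unadjusted edgeR p of 0.047 and an adjusted p of 1. The high-Xist control had 17.6 CPM, and here too 1 such control cannot tell sex from genotype. Against the single RNeasy control, at 21.4 CPM, the log2 fold change was 0.52, with that library assumed to vary like the mutants.

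At P75 the tissues gave different values for Sephs2. The cortex controls had 22.3, 17.7 and 28.1 CPM and the mutants 29.7, 25.3, 36.9, 35.3 and 39.1, so that 4 mutants lay above each control and 1 lay among them. The log2 fold change was 0.55 ± 0.19 (SE; interval 0.13 to 0.98), or 1.47-fold, with an unadjusted edgeR p of 0.0163 and an adjusted p of 0.772. The labels do not say whether replicate numbers pair mutants with controls. With the number as a block, 48 of 13291 genes passed, none of them a member. Sephs2 then had a log2 fold change of 0.44 (adjusted p = 0.435, edgeR). In P75 heart the controls had 14.1, 12.2 and 34.3 CPM and the mutants 29.7, 13.4, 18.1, 24.0 and 24.0. Control 3 alone lay above all 5 mutants, and the log2 fold change was 0.12 ± 0.38 (SE; interval −0.73 to 0.97). It was 0.74 without control 3, and with 1 library left out at a time it reached from −0.15 to 0.74. Without control 1 and the libraries numbered 2 it was −0.52, with control 3 as the only control. This comparison thus fixed no direction. The difference of the mutant effect between heart and cortex did not pass for Sephs2 at P1 (adjusted p = 1) or at P75 (adjusted p = 0.931) in the edgeR interaction test.

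**Figure D1:**
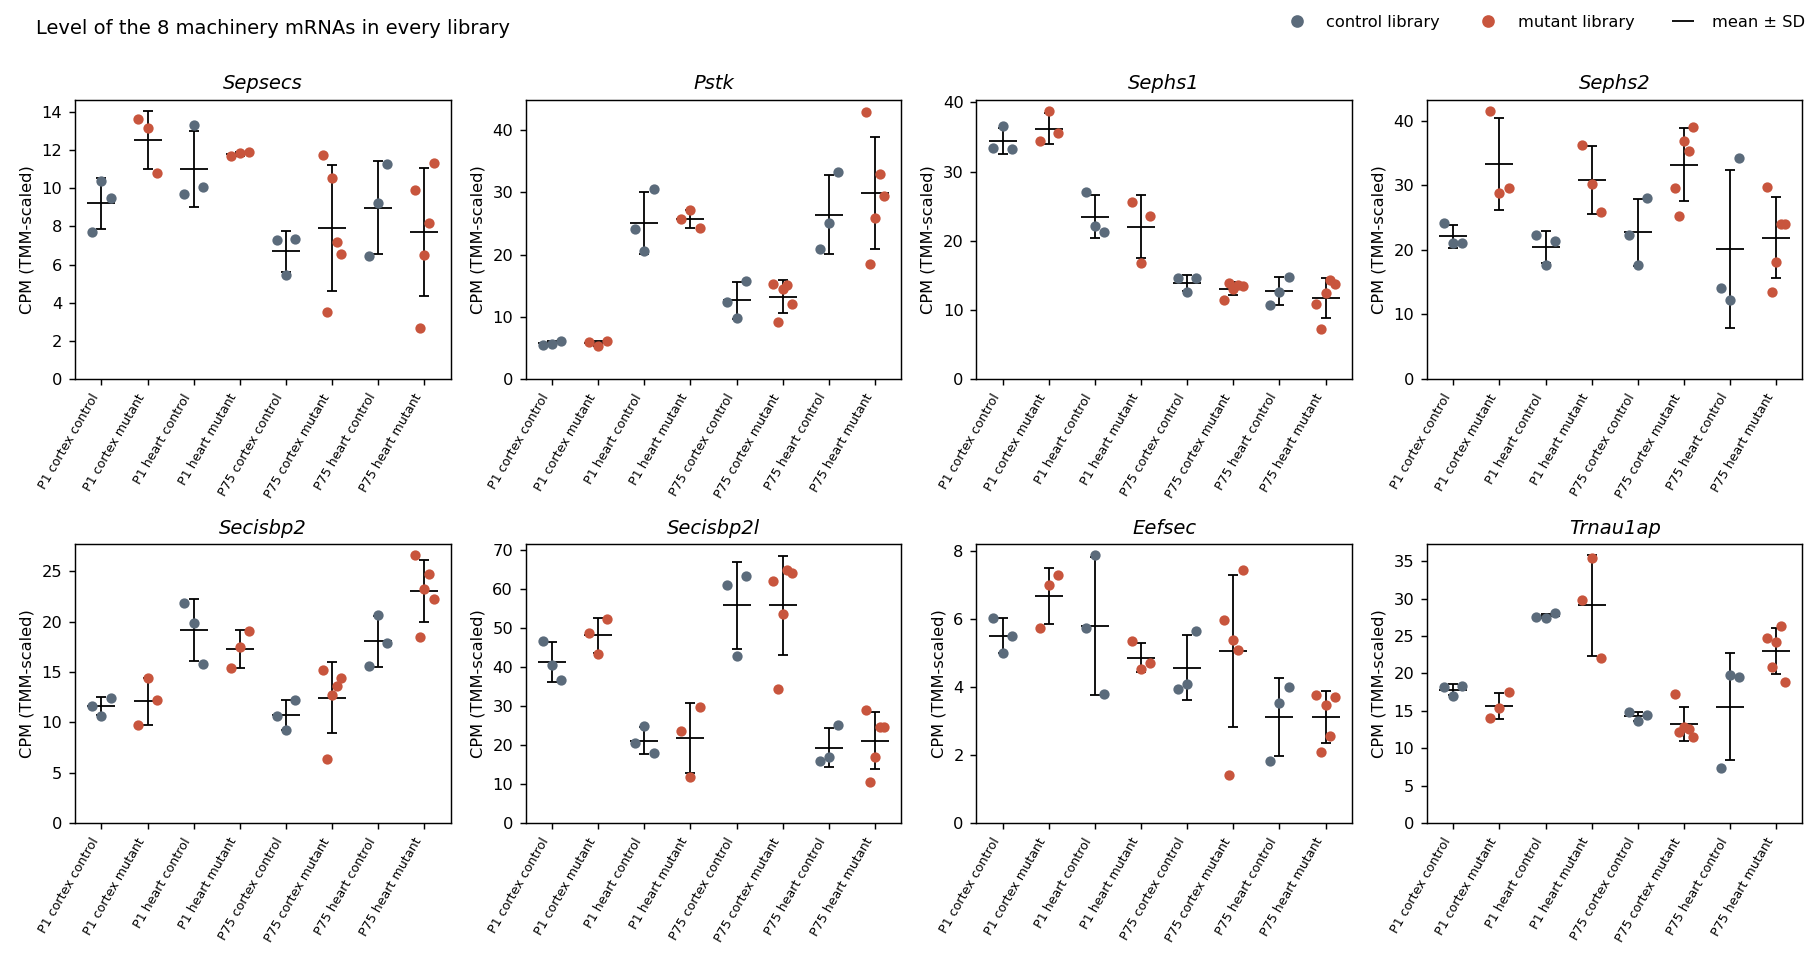
Level of each of the 8 mRNAs (TMM-scaled CPM, linear axis from 0) in the 8 groups; each point is 1 library, grey-blue for controls and red for mutants, and the lines give the mean ± SD. For Sephs2 the P1 mutants lie above the P1 controls in both tissues, Pstk is higher in heart than in cortex, and Secisbp2l is lower in heart.

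Sepsecs itself, whose coding sequence carries the allele, was measured from 9 to 121 counts per library. In P1 cortex the controls had 7.73, 10.4 and 9.51 CPM and the mutants 13.7, 13.2 and 10.8. Each mutant lay above each control, and the log2 fold change was 0.46 ± 0.22 (SE; interval −0.03 to 0.95), with an unadjusted edgeR p of 0.0651 and an adjusted p of 1. With Xist as a covariate the P1 cortex log2 fold change was 0.67. In P1 heart the controls spanned 9.73 to 13.3 CPM and the mutants 11.7 to 11.9. The log2 fold change there was 0.08 ± 0.29 (SE), and −0.16 with the Xist covariate. The P75 mutants spread more widely, from 3.51 to 11.8 CPM in cortex and from 2.68 to 11.3 in heart, against 5.45 to 7.34 and 6.43 to 11.3 in the controls. Their log2 fold changes were 0.25 ± 0.35 and −0.20 ± 0.42 (SE). The lowest value of either group was that of mutant 2, and without the libraries numbered 2 the P75 heart value was 0.01. Across the 4 comparisons, then, the amount of Sepsecs mRNA had no called change, and the intervals allowed a fall to 0.456-fold and a rise to 2.03-fold.

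Pstk, the kinase of the step before Sepsecs (ENSMUSG00000063179, chr7:131371141-131394482, plus strand), had estimates near 0 at P1. In P1 cortex the controls had 5.49, 5.65 and 6.1 CPM and the mutants 5.87, 5.29 and 6.1, and the log2 fold change was 0.01 ± 0.25 (SE). In P1 heart the means were 25.1 ± 5.00 in controls and 25.8 ± 1.47 in mutants (SD, n = 3 each). At P75 they were 12.7 ± 2.96 (n = 3) and 13.2 ± 2.64 (n = 5) in cortex, and 26.4 ± 6.38 (n = 3) and 29.9 ± 9.04 (n = 5) in heart. The 95% intervals of the fold change reached from 0.676 to 1.49 in P1 cortex and from 0.72 to 1.80 in P75 heart, where the log2 fold change was 0.19 ± 0.30 (SE). Pstk overlaps Ikzf5 and Fgfr2 on the opposite strand in the annotation, and whether the authors counted by strand is not stated, so reads of the strands may be mixed.

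Sephs1, the relative of Sephs2 without selenocysteine, had estimates nearer 0 than those of Sephs2 in P1 cortex, P1 heart and P75 cortex. In P75 heart the estimates were of similar size, −0.10 ± 0.29 for Sephs1 and 0.12 ± 0.38 for Sephs2 (SE). The mean of Sephs1 in P1 cortex was 34.4 ± 1.84 CPM in controls and 36.2 ± 2.25 in mutants (SD, n = 3 each). Its log2 fold change there was 0.08 ± 0.15 (SE). In P1 heart, P75 cortex and P75 heart the log2 fold changes were −0.11 ± 0.27, −0.09 ± 0.16 and −0.10 ± 0.29 (SE). Its intervals were the narrowest in P1 cortex, from 0.842-fold to 1.33-fold. Whether the effects on Sephs1 and Sephs2 differed from each other was not tested.

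None of the decoding factors passed either. Secisbp2 (ENSMUSG00000035139, chr13:51651697-51684044, plus strand) had log2 fold changes of 0.07 ± 0.22 in P1 cortex, −0.17 ± 0.26 in P1 heart, 0.22 ± 0.27 in P75 cortex and 0.36 ± 0.24 in P75 heart (SE). In P75 heart its controls had 15.6, 20.7 and 17.9 CPM and the mutants 26.7, 18.5, 23.2, 24.7 and 22.2, so 4 of 5 mutants lay above the controls (adjusted p = 0.713, edgeR). Secisbp2l (ENSMUSG00000035093, chr2:125736986-125782870, minus strand) had log2 fold changes of 0.23 ± 0.15, 0.04 ± 0.35, 0.01 ± 0.22 and 0.14 ± 0.34 (SE) in the same order. With Xist as a covariate, its P1 cortex value was 0.07. Eefsec (ENSMUSG00000033216, chr6:88257334-88446539, minus strand, with Gm44265 in an intron on the same strand) was measured from 6 to 57 counts, and its log2 fold changes were 0.28 ± 0.26, −0.26 ± 0.39, 0.15 ± 0.42 and 0.01 ± 0.42 (SE). In P75 heart the 95% interval of its fold change reached from 0.53-fold to 1.93-fold.

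Trnau1ap (ENSMUSG00000028898, chr4:132311763-132329538, minus strand) had the largest estimate of the P75 heart comparison. The controls had 7.35, 19.8 and 19.5 CPM and the mutants 24.8, 20.9, 24.2, 26.4 and 18.9, so that 4 of 5 mutants lay above all controls. The log2 fold change was 0.57 ± 0.33 (SE; interval −0.15 to 1.29), with an unadjusted edgeR p of 0.108. It was 0.23 without control 1, the library at 7.35 CPM. In P1 cortex Trnau1ap was the 1 member with a lower estimate, at −0.18 ± 0.18 (SE), and in P1 heart and P75 cortex the log2 fold changes were 0.05 ± 0.25 and −0.10 ± 0.19 (SE).

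As a set, 7 of 8 members had a higher estimate in mutants in P1 cortex (median log2 fold change 0.15), 5 of 8 in P1 heart (0.03), 6 of 8 in P75 cortex (0.11) and 6 of 8 in P75 heart (0.13). Of all genes tested, 49.4%, 48.6%, 50.0% and 51.0% had a higher estimate, with median log2 fold changes of −0.00295, −0.0103, 7.74e-05 and 0.0102. In P1 cortex the groups did not overlap for 2 members, Sephs2 and Sepsecs, both higher in mutants, against 3.1% of all genes higher and 3.89% lower. In P1 heart this held for Sephs2, against 3.51% higher and 2.94% lower. At P75 it held for 0 members, against 2.34% higher and 1.87% lower in cortex and 2.16% and 2.65% in heart. For 4 of 5 mutants above all controls, the share of all genes was not counted. The highest upper 95% limits were 2.01-fold in P1 cortex and 2.20-fold in P1 heart, both of Sephs2, 2.12-fold in P75 cortex, of Eefsec, and 2.45-fold in P75 heart, of Trnau1ap. The interval of every member ended at or below the limit of its comparison. The tag counts say nothing of protein or enzyme activity.

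**Figure D2:**
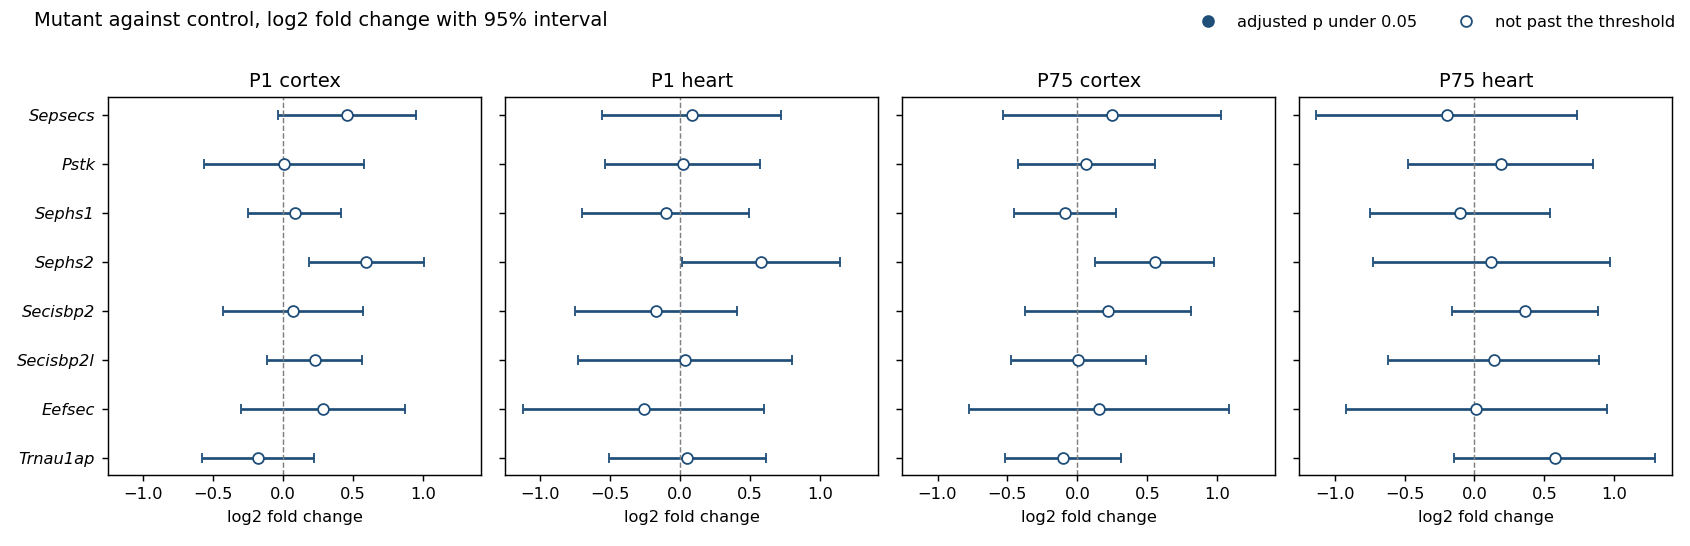
Log2 fold change of mutants over controls (x axis) for the 8 genes in the 4 comparisons; points are edgeR estimates and bars their 95% intervals, and open points did not pass an adjusted p of 0.05. All points are open, and the bar of Sephs2 lies above 0 in P1 cortex, P1 heart and P75 cortex, with estimates of 0.59, 0.57 and 0.55.

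Genes around the pathway were counted in the same comparisons. Of 10 accessory factors, among them Scly, the lyase that recycles selenium from selenocysteine, Sars, the synthetase that charges the tRNA with serine, and Rpl30, a ribosomal protein known to bind the SECIS element, 0 passed in each genotype comparison. Their medians were −0.01, −0.15, −0.01 and −0.05 in P1 cortex, P1 heart, P75 cortex and P75 heart. Rpl30 had 33.5 ± 9.28 CPM in P1 cortex controls and 22.4 ± 0.375 in mutants (SD, n = 3 each). It was the 1 accessory factor without overlap there, against 3.89% of all genes lower in mutants. In P1 heart 1 factor was higher and 1 lower without overlap, against 3.51% and 2.94% of all genes. The log2 fold changes of Rpl30 were −0.57 ± 0.21 in P1 cortex, −0.60 ± 0.31 in P1 heart, 0.67 ± 0.31 in P75 cortex and −0.91 ± 0.63 in P75 heart (SE). Rpl30 was thus lower in mutants in 3 of 4 estimates. It has near-identical copies in the genome, between which reads could be split. Of 20 cytosolic aminoacyl-tRNA synthetases and 6 general elongation factors, which serve translation at large, 0 passed in each genotype comparison. Of the 24 selenoprotein genes, which include Sephs2, 20 or 21 were tested, and 1 passed: Selenoh, lower in P75 heart (log2 fold change −2.47 ± 0.28, SE; adjusted p = 0.0208, edgeR), 1 of 2 genes called there (0.0163%). Without any 1 library of that comparison other than mutant 2, 0 genes were called. At an unadjusted p under 0.05, 3 selenoprotein genes were higher in mutants and 4 lower in P1 cortex, 1 and 5 in P1 heart, 3 and 3 in P75 cortex and 3 and 3 in P75 heart. The shares of all genes at that p in either direction were 2.1%, 2.53%, 5.46% and 7.83%.

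Heart and cortex were compared within each genotype and age to see how the machinery differs between the organs. Pstk was higher in heart in all 4 comparisons and Secisbp2l was lower in all 4. In P1 controls 3 members were higher in heart and 1 lower, against 29.2% and 29.2% of all genes. In P1 mutants 2 were higher and 2 lower, against 31.9% and 33.2%. In P75 controls 1 was higher and 1 lower, against 23.6% and 28.4%, and in P75 mutants 3 were higher and 2 lower, against 32.8% and 34.2%. At P1 equal numbers did not mark 1 mouse, since control 1 had Xist at 380 CPM in cortex and 0.667 in heart, and the P1 heart mutants differ from the cortex mutants also in extraction kit.

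Pstk showed the widest span of the machinery between groups. P1 cortex controls had 5.49, 5.65 and 6.1 CPM and P1 heart controls 24.1, 20.6 and 30.5, with a log2 fold change of 2.13 ± 0.28 (SE; adjusted p = 6.3e-05, edgeR). In P1 mutants it was 2.11 ± 0.24 (adjusted p = 8.7e-06, edgeR). In P75 controls the cortex had 12.4, 9.81 and 15.7 CPM and the heart 20.8, 25.0 and 33.4, a log2 fold change of 1.02 ± 0.34 (adjusted p = 0.0299, edgeR), and in P75 mutants it was 1.21 ± 0.23 (adjusted p = 0.000461, edgeR). The call in P75 controls was lost without any 1 cortex control or without heart control 3 (adjusted p = 0.0536 to 0.115, edgeR). Heart and cortex did not overlap in any of these pairs of groups. Ordered by mean, the 4 heart groups came first with overlapping ranges, from 29.9 to 25.1 CPM, then the P75 cortex groups at 13.2 and 12.7 CPM, then the P1 cortex groups at 5.75 CPM each.

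Secisbp2l differed between the tissues in the opposite direction. P1 cortex controls had 46.6, 40.4 and 36.6 CPM and P1 heart controls 20.4, 25.0 and 18.0, with a log2 fold change of −0.95 ± 0.24 (SE; adjusted p = 0.005, edgeR). The fold change was −1.18 ± 0.29 in P1 mutants, −1.55 ± 0.33 in P75 controls and −1.36 ± 0.26 in P75 mutants, with adjusted edgeR p of 0.00349, 0.00274 and 0.000503. The 4 cortex groups had means of 41.2 to 55.7 CPM and the 4 heart groups 19.3 to 21.7. In cortex the P75 groups had the higher means, as for Pstk. Within each tissue the neighbours in the order of means overlapped.

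The relative Secisbp2 had group means of 17.3 to 23.1 CPM in heart and 10.7 to 12.4 in cortex. It passed in P1 controls (log2 fold change 0.74 ± 0.26, SE, adjusted p = 0.032, edgeR) and in P75 mutants (0.92 ± 0.23, adjusted p = 0.00283, edgeR). In P1 mutants (0.46 ± 0.26, adjusted p = 0.134, edgeR) and P75 controls (0.72 ± 0.33, adjusted p = 0.0916, edgeR) it did not pass. Trnau1ap passed in P1 controls (0.65 ± 0.22; adjusted p = 0.0262), P1 mutants (0.84 ± 0.25; adjusted p = 0.00943) and P75 mutants (0.83 ± 0.18; adjusted p = 0.00103). In P75 controls its cortex values were 14.8, 13.6 and 14.4 CPM and its heart values 7.35, 19.8 and 19.5, so the ranges overlapped through heart control 1. Sephs1 was lower in heart in P1 mutants (−0.76 ± 0.23; adjusted p = 0.0119), and Sephs2 in P75 mutants (−0.56 ± 0.22; adjusted p = 0.0344). In P1 controls the call of Secisbp2 was lost without any 1 library other than heart control 3 (adjusted p = 0.0569 to 0.124), and that of Trnau1ap without any 1 cortex control or without heart control 3 (0.0597 to 0.114, edgeR). The call of Sephs2 in P75 mutants was lost without cortex mutant 3, 4 or 5 or heart mutant 2, 3, 4 or 5 (adjusted p = 0.0611 to 0.117, edgeR). Sepsecs and Eefsec passed in 0 of the 4 comparisons, with group means of 6.70 to 12.5 and 3.12 to 6.69 CPM.

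These calls depend on the scaling between tissues. With library totals alone, the median log2 fold change of all genes moved to −0.41 in P1 controls, −0.44 in P1 mutants, −0.92 in P75 controls and −0.79 in P75 mutants, and genes called higher made up 36%, 36.1%, 23.1% and 24.9% of calls in place of 50.1%, 49%, 45.4% and 48.9%. Secisbp2l stayed called lower in all 4, and Pstk stayed called higher at P1, while Pstk at P75, Secisbp2 and Trnau1ap were called in none. Sephs2 stayed called lower in P75 mutants. Sephs1 stayed called lower in P1 mutants. Called in addition were Sephs1, lower in P1 controls and P75 mutants, and Eefsec, lower in both mutant comparisons. With the single RNeasy P1 heart control as the heart group, the spread came from the 3 cortex controls alone. The log2 fold change was then 0.45 for Secisbp2 (adjusted p = 0.296) and 0.65, as with all 3 heart controls, for Trnau1ap (adjusted p = 0.0893, edgeR), and Pstk and Secisbp2l passed.

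**Figure D3:**
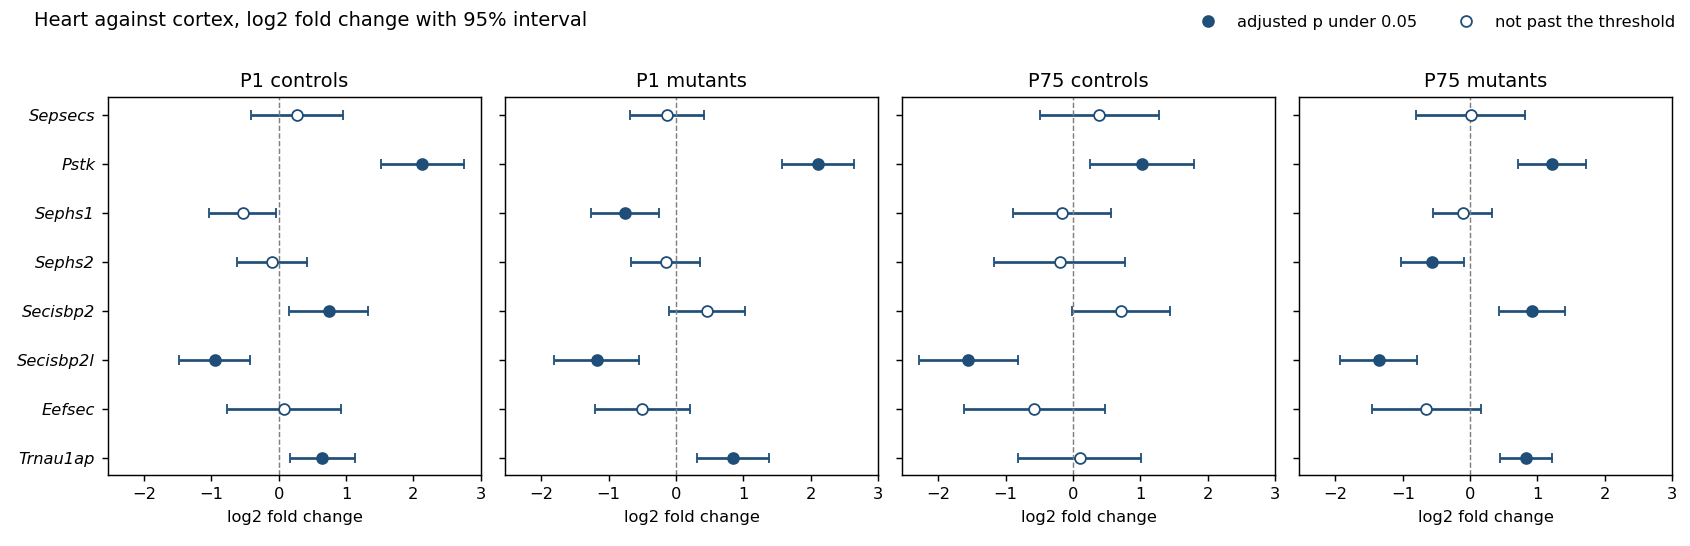
Log2 fold change of heart over cortex (x axis) for the 8 genes in controls and mutants at P1 and P75; points are edgeR estimates, bars 95% intervals, and filled points passed an adjusted p of 0.05 under TMM scaling. Pstk lies to the right of 0 and Secisbp2l to the left in all 4 panels.

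P75 and P1 controls were compared within a tissue to see how the machinery changes with age; the controls of the ages carry different labels, so age and line cannot be told apart. In cortex 1 member was higher at P75 and 1 lower, against 21% and 19.1% of all genes. Sephs1 fell from 33.4, 36.5 and 33.3 CPM at P1 to 14.6, 12.5 and 14.6 at P75, with a log2 fold change of −1.31 ± 0.21 (SE; adjusted p = 0.00105, edgeR). Pstk rose from 5.49, 5.65 and 6.1 CPM to 12.4, 9.81 and 15.7, with a log2 fold change of 1.14 ± 0.28 (SE; adjusted p = 0.0108, edgeR), and it did not pass without P75 cortex control 3 (0.96; adjusted p = 0.0621). The selenophosphate synthetase Sephs2 had 22.1 ± 1.81 CPM at P1 and 22.7 ± 5.20 at P75 (SD, n = 3 each). In heart 0 members passed, against 8.19% of all genes higher and 8.53% lower. Sephs1 had 27.1, 22.1 and 21.3 CPM at P1 and 10.7, 12.5 and 14.8 at P75. At a log2 fold change of −0.87 ± 0.34 (SE), it did not pass (adjusted p = 0.102, edgeR). With library totals alone it was called lower, while the median of all genes moved to −0.61 there and genes called higher made up 16.2% of calls in place of 49%. In a fit of all 28 libraries it was called lower too, with Trnau1ap.

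The mutant effect was also compared between heart and cortex with an interaction term at each age. It passed for 0 of 8 members at P1 and 0 of 8 at P75, against 0% of 15157 genes and 0% of 14814 genes by edgeR, while 371 and 945 genes had an unadjusted p under 0.05, with 0 members at either age. DESeq2 also called 0 members.

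Within groups the 8 mRNAs were not spread alike among libraries. P75 cortex mutant 2 was below its group mean for 7 of 8 members, by a median of −0.57 on the log2 scale, and P75 heart mutant 2 for 8 of 8, by −0.64. P75 cortex control 2 (−0.23) and P75 heart control 1 (−0.33) were below for 8 of 8 as well. The share of all genes below the group mean was not counted, so whether this is particular to the machinery was not tested. The median Spearman's rho with the other libraries of the group was 0.932 for P75 cortex mutant 2 and 0.904 for P75 heart mutant 2. Both were the lowest of their groups. P75 cortex control 2 and mutant 2 had the fewest counts of their groups, 2997738 and 3558689. Their neuron markers summed to 9070 and 9635 CPM of the library total, against 12756 to 16544 in the other P75 cortex libraries. The part of these library differences in the deviations was not tested. In P75 cortex mutant 2 Eefsec had 6 counts and 1.41 CPM, against 5.1 to 7.46 CPM in the other 4. At P1 the largest such median was −0.12, in heart control 3. P75 heart control 1 had a TMM factor of 0.447, against 0.667 to 0.826 in the other P75 heart libraries. Deviations of Secisbp2 and Eefsec from their group means had the highest correlation of any pair (r = 0.84 over 28 libraries), followed by Pstk and Sephs2 (0.75) and Sepsecs and Pstk (0.74); these points share library depth and scaling.

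**Figure D4:**
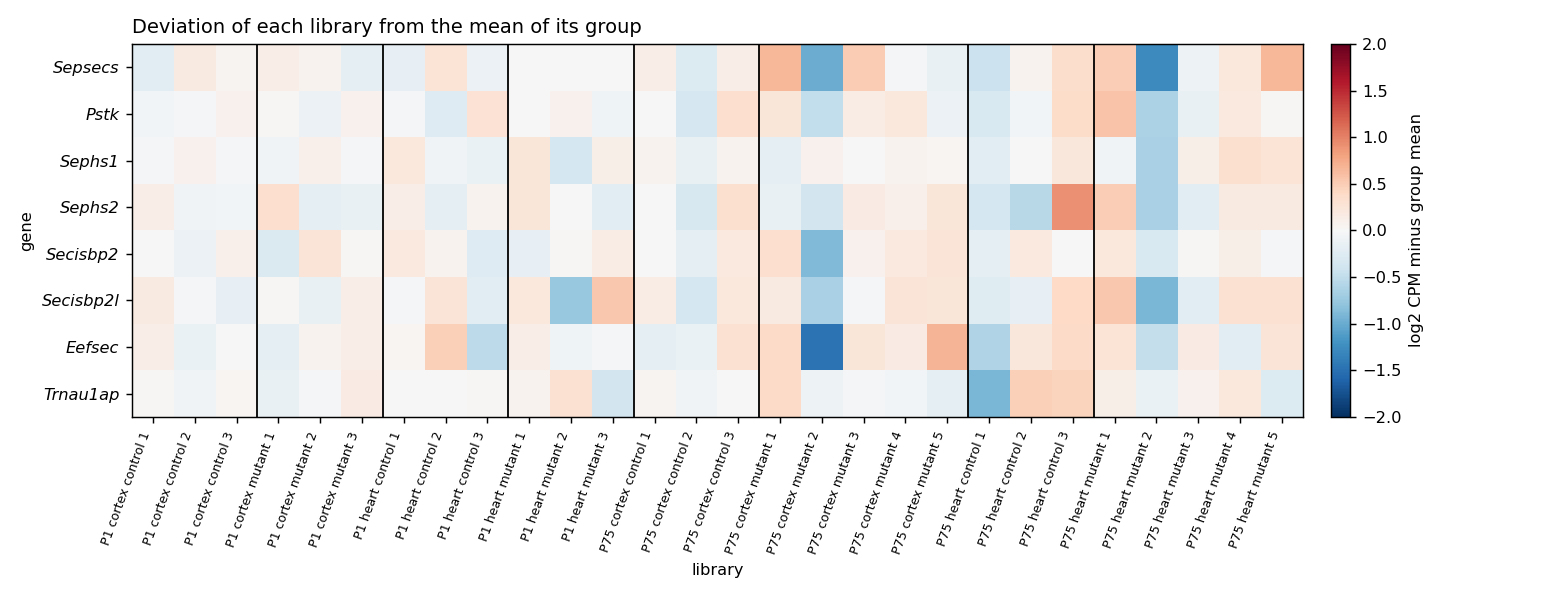
Deviation of each library from its group mean in log2 CPM (colour, red above and blue below) for the 8 genes (rows) in the 28 libraries (columns); vertical lines separate the 8 groups. The columns of P75 cortex mutant 2 and P75 heart mutant 2 are blue for 7 of 8 and 8 of 8 genes, and P75 heart control 3 is red for Sephs2.

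Genes whose pattern over the 28 libraries was most like each member's were named by Pearson's r, as a description, since the libraries share tissue and age differences. The 3 most like Pstk were Anxa5, Adssl1 and Wdsub1 (r = 0.97, 0.96 and 0.96), and those most like Secisbp2l were Atrn, Ubqln2 and Eif4g3 (all 0.95). Sephs1 was followed by Brd3, Nras and Serf1 (0.94, 0.94 and 0.93), and Secisbp2 by Lrch3, Etfa and Slc35f5 (0.91, 0.89 and 0.89). Trnau1ap lay nearest to Ppp4r1, Ubald2 and Fam114a2 (all 0.86), Sepsecs to Osbpl11, Celsr1 and Ncapg2 (0.85, 0.84 and 0.82), and Eefsec to St6gal1, Zfp647 and Setdb1 (0.83, 0.82 and 0.80). Sephs2, whose group means spanned the narrowest range (1.65-fold from lowest to highest), had the lowest values, with Pex5, Borcs7 and Cntrob at 0.75, 0.73 and 0.73. Between members, the highest r over the libraries was 0.77, of Pstk and Secisbp2, and the lowest −0.60, of Pstk and Secisbp2l.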

How the data were processed

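The deposited files hold 1 raw count per Ensembl gene and library, made by the authors from QuantSeq 3′ tags aligned with STAR to GRCm38, per the submitters' processing notes. The counting tool, the annotation and the strand setting were not given in the sources used here. Groups follow the labels' age, tissue and genotype. Members were matched by symbol through GENCODE M21, which named 52083 of 55416 identifiers. Each comparison was fitted on its own libraries with edgeR 4.0.16 (R 4.3.3): genes kept by filterByExpr (minimum count 10), TMM scaling, quasi-likelihood F test, and Benjamini-Hochberg adjustment over every gene tested (threshold 0.05). The SE was derived from the log2 fold change and its F value, and intervals are 95%. CPM carry TMM factors over all 28 libraries, from genes with a mean of at least 10 counts. Totals were 2997738 to 8779631 counts, and duplicate tags of 1 molecule may be included.

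The members and gene lists were chosen with earlier results of these data known. Named were the 8 members in every comparison, up to 3 genes of lowest p in each other list, not all of which are printed, and the 3 genes most like each member. The labels do not say that replicate numbers pair samples. Same-numbered P75 cortex controls and mutants deviated together from their group means (r = 0.32, 0.72 and 0.35). Control 3 was closer to mutant 4 (0.43), however. Positive r also held for P1 and P75 heart controls (0.24, 0.12 and 0.15), which are different mice. P1 cortex controls and mutants had 0.05, 0.34 and 0.42. For P75 mutants, heart and cortex had 0.26, 0.49, 0.08, 0.14 and 0.11. These values do not settle whether the numbers pair samples, and the block was run only as an alternative. At P75, number 1 was the library with high Xist in each group.

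Alternatives were RLE scaling, DESeq2 1.42.0, no count filter, a filter on the mean count (minimum 10), limma-voom (limma 3.58.1) with quality weights, all libraries in 1 fit, the replicate block, haemoglobin and mitochondrial genes left out, Xist as a covariate, RNeasy P1 heart libraries only, and each library left out. Library totals alone, and leaving out P75 libraries numbered 2 or these with P75 heart control 1, were chosen after seeing the data. The fits were tested on simulated data.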

Additional observations from a re-analysis of the deposited data

Results flagged for a closer look

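In P75 cortex mutants, Secisbp2 in mutant 2 stood apart from its group at 6.32 CPM, the lowest value, with the next at 12.7 and the highest at 15.2. In the same group, Trnau1ap in mutant 1 stood apart at 17.2 CPM, the highest value, with the next at 12.8 and the lowest at 11.5. In both cases the gap to the nearest library was a larger share of the group's range (0.72 and 0.762) than Dixon's limit of 0.71 for 5 libraries. These were 2 of 16 gene and group pairs checked, and chance flags about 1 in 20. Without mutant 2, the log2 fold change of Secisbp2 in P75 cortex was 0.37 in place of 0.22 and still did not pass (adjusted p = 0.449, edgeR). Trnau1ap was −0.10 in P75 cortex, and between −0.23 and −0.07 with 1 library left out at a time.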

How the results depend on the processing

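In the 4 mutant comparisons and the 2 interactions, 0 members passed under every alternative run. In P1 controls, heart against cortex called 4 members, but 2 without a count filter, with the replicate block or with the RNeasy heart library only, 3 with library totals, 5 with RLE, DESeq2, limma-voom or the fit of all 28 libraries, and 2 to 4 with a library left out. Of the 16 alternatives, Secisbp2 was called in 7 and Trnau1ap in 8, and Pstk and Secisbp2l in all 16. In P75 controls it called 2 members, but 1 without a count filter, with library totals or without the libraries numbered 2, 3 in the fit of all 28, and 1 to 2 with a library left out. P1 mutants gave 4 members, but 5 with limma-voom. P75 mutants gave 5, but 4 to 6 over the alternatives. Cortex age called 2 members, and 1 to 3 with a library left out; heart age called 0, but 2 in the fit of all 28 libraries and 1 with library totals. The replicate block changed no other count of member calls. Over all genes, the block called 2 in P1 heart and 0 in P1 cortex and P75 heart.

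Estimates that did not pass changed sign as follows, and the cause was not tested. All 28 libraries in 1 fit gave −0.00699 for Pstk in P1 cortex. In P1 heart, limma-voom gave Pstk −0.0214, Sephs1 0.0269 and Trnau1ap −0.13, the RNeasy libraries gave Pstk −0.251, Sephs1 0.053, Secisbp2 0.121 and Eefsec 0.359, the Xist covariate gave Sepsecs −0.158 and Secisbp2l −0.287, and the block gave Secisbp2l −0.0385. In P75 cortex, Secisbp2l was −0.0013 with RLE, −0.0086 with a mean count of 10, −0.0017 with DESeq2, −0.00399 in the fit of all 28, −0.164 with the block and −0.0111 without the libraries numbered 2, and Eefsec was −0.128 with the block. In P75 heart, leaving out the libraries numbered 2 gave Sepsecs 0.00697 and Sephs2 −0.0289. Leaving out control 1 as well left control 3 as the only control and gave Pstk −0.0339, Sephs2 −0.523, Secisbp2l −0.0876 and Eefsec −0.236. Library totals gave Sephs1 0.0432, the block gave Secisbp2l −0.122, and limma-voom gave Eefsec −0.0707.

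With 1 library left out, the sign also changed for Pstk (−0.0393 to 0.0562) and Secisbp2 (−0.0838 to 0.229) in P1 cortex; Sepsecs (−0.00244 to 0.274), Pstk (−0.0699 to 0.166), Sephs1 (−0.245 to 0.0587), Secisbp2l (−0.25 to 0.328), Eefsec (−0.504 to 0.0529) and Trnau1ap (−0.0995 to 0.213) in P1 heart. In P75 cortex it did so for Pstk (−0.0651 to 0.221), Secisbp2l (−0.133 to 0.126) and Eefsec (−0.0336 to 0.36), and in P75 heart for Sepsecs (−0.398 to 0.00249), Sephs1 (−0.22 to 0.0243), Sephs2 (−0.149 to 0.741), Secisbp2l (−0.00748 to 0.375) and Eefsec (−0.258 to 0.234). Sephs2 stayed above 0 in P1 cortex (0.43 to 0.68), P1 heart (0.42 to 0.76) and P75 cortex (0.42 to 0.70) under each setting, with adjusted p of 0.157 or more.

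Over all genes, P1 cortex called 0, but 52 without a count filter; P1 heart 0, but 118 without it; P75 cortex 0, but 53 with DESeq2; P75 heart 2, but 0 with the block and 157 in the fit of all 28; heart age 2101, but 312 with the RNeasy library only and 4410 in the fit of all 28. The interactions called 0, but 42 at P1 without a filter and 58 at P75 with DESeq2. Of 17 tissue values not called, 6 were called under some setting, and of 14 age values 3. Eefsec was measured from 6 to 57 counts a library and Sepsecs from 9 to 121; what change this depth could detect was not tested.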
